A study of Mus musculus with 8 samples.

Results

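Transcripts of 10 CC chemokine genes, Ccl2, Ccl5, Ccl7, Ccl8, Ccl9, Ccl11, Ccl17, Ccl20, Ccl22 and Ccl24, were followed in the lungs of 8 mice from an ovalbumin (OVA) model of allergic asthma. The genes were chosen by name, with earlier results of these data known, and found on the array through their RefSeq accessions. Each had 1 probe, and together they made up 10 of 28992 genes or unnamed transcripts tested. All mice were female BALB/c, bought at 4 weeks of age, housed for 2 weeks and then fed freely for 70 days, with 2 mice in each of 4 groups. NT mice received standard feed and no OVA. Ctrl-F mice received standard feed, Cap-F mice a feed with carbonate apatite particles that held no oligonucleotide, and ODNcap-F mice a feed with particles that encapsulated the CpG oligodeoxynucleotide MsST. Ctrl-F, Cap-F and ODNcap-F mice were all sensitized with 3 intraperitoneal injections of OVA with aluminium gel and challenged with aerosolized OVA, and lungs were taken 24 h after the last inhalation. RNA of the whole lung was hybridized to 1 single-color array per mouse.

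Signals were taken as log2 intensities after quantile normalization over the 8 arrays, a scale on which a difference of 1 is a 2-fold change. A gene was called changed at a limma adjusted p under 0.05 with a fold change over 2. On each array 61.3% to 65.0% of probes passed the scanner software's test against background, no spot was saturated, and the 2 mice of a group correlated at an r of 0.994 to 0.996 over the probes kept. NT and Ctrl-F lay in row 1 of the slide, and Cap-F and ODNcap-F in row 2, so that row and group cannot be told apart when a group of row 2 is set against a group of row 1. Ctrl-F against NT and ODNcap-F against Cap-F lie within a row. Read at the brightest probe of each gene, none of 6 lung epithelial markers was called against NT. Ager and Nkx2-1 lay lower there with every feed, at log2 differences of -0.75 to -0.92 and -0.80 to -0.90. A dimmer Ager probe fell by more than 2-fold, from a mean of 15.65 (NT) to 14.26 (Ctrl-F), 14.16 (Cap-F) and 14.32 (ODNcap-F). Another also fell by more than 2-fold, from 15.43 to 14.10, 14.02 and 14.21 in the same order. The remaining Ager probes lay lower too, though not by 2-fold with every feed. Sftpc and Scgb1a1, also among the 6, read 17.5 or 17.6 on every array, near the top of the scale. Quantile normalization gives each rank the same value on every array, so changes of these genes that leave their rank need not show. With 2 mice in a group, the number of arrays limits the precision.

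CC chemokines are small secreted proteins that draw leukocytes along a concentration gradient by binding G protein-coupled receptors on the moving cell. In allergic airways, ligands of CCR3 recruit eosinophils, ligands of CCR4 and CCR8 recruit type 2 helper T cells, ligands of CCR2 recruit monocytes, and CCL20 recruits dendritic cells and lymphocytes that carry CCR6. Epithelial cells, macrophages, dendritic cells and fibroblasts can each make several of them, often after exposure to IL-4, IL-13, TNF or IL-1.

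After OVA, 9 of the 10 CC chemokine transcripts rose in the lung and 1, Ccl5, did not. The same 9 were called higher against NT with each of the feeds, and none was called lower. Among the 9, Ccl22 was not well above background in NT and was kept only through the OVA-challenged groups. With a filter on all 8 arrays, which leaves Ccl22 out, 8 genes were called in each comparison. Ccl8 changed most, near 298-fold, followed by Ccl24, Ccl11 and Ccl9, and among the called genes measured above background in every group the smallest change was that of Ccl17, 6.51-fold in Cap-F. Of all genes and transcripts tested, 10.5% were called higher and 12.2% lower in Ctrl-F against NT, 9.74% and 9.87% in Cap-F against NT, and 9.86% and 10.8% in ODNcap-F against NT. The median change over the 10 genes was 4.08, 3.94 and 4.19 on the log2 scale for Ctrl-F, Cap-F and ODNcap-F, beside medians of -0.12, -0.11 and -0.12 over all genes tested. Because the 10 genes were chosen with earlier results known, their contrast with all genes is a description and not a test. The 3 comparisons share the 2 NT mice, and in RNA of whole lung more cells of a type and more RNA per cell cannot be told apart.

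**Figure D1:**
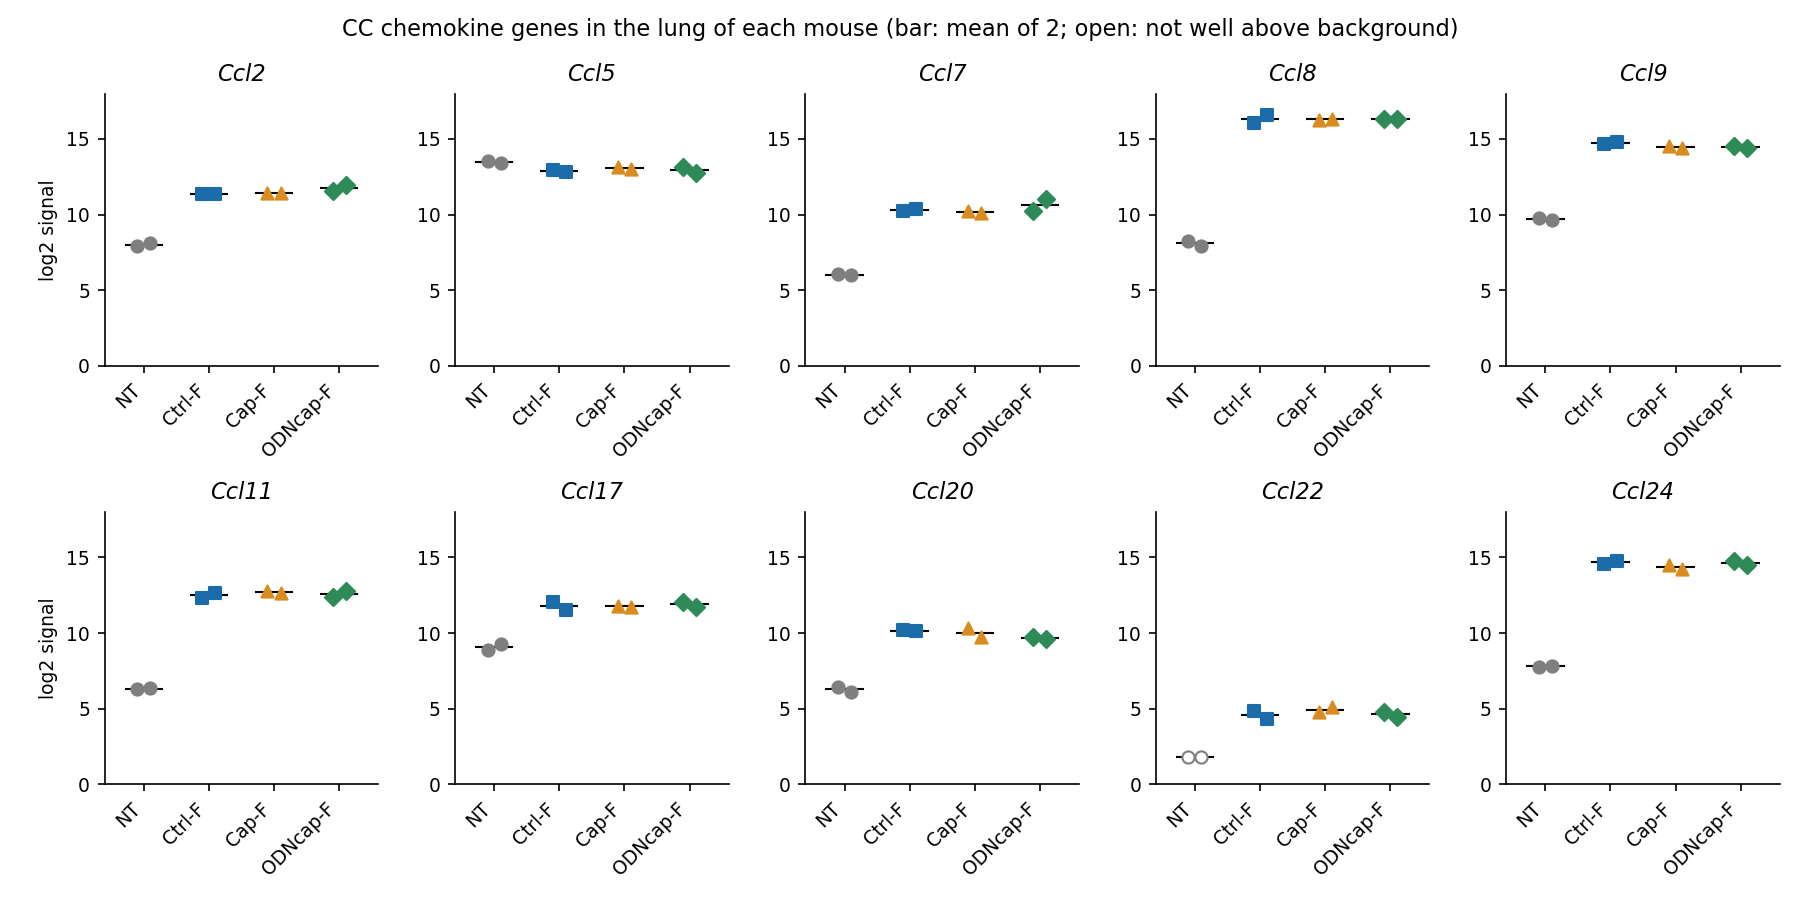
Log2 signal (vertical axis) of each CC chemokine gene in each mouse, with 1 panel per gene, 2 mice per group (points) and the group mean (bar). In 9 panels the 6 OVA-challenged mice lie above both NT mice, and in the Ccl5 panel they lie below. Open points mark Ccl22 in NT, which was not well above background; signal heights cannot be compared between panels because each gene has its own probe.

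Promoter windows are shown for the members that a RefSeq table of build GRCm38.p6 held, 5 of the 10, because these genes moved together after OVA. Each window is the 250 bases before the annotated start of the gene, read 5′ to 3′ on the strand of the gene. Capitals mark matches on either strand to TTCNNNNGAA, a spacing bound by STAT6, to TTCNNNGAA, bound by other STAT proteins, to TGANTCA, which takes in the AP-1 site, to TATAAA, and to the NF-kB consensus. Of 32851 windows of the same length in the table, 5.85% held TTCNNNNGAA, 7.02% TTCNNNGAA, 6.75% TGANTCA, 12.4% TATAAA and 7.25% the NF-kB consensus.
Ccl17 (chr8:94810203-94810452, plus strand): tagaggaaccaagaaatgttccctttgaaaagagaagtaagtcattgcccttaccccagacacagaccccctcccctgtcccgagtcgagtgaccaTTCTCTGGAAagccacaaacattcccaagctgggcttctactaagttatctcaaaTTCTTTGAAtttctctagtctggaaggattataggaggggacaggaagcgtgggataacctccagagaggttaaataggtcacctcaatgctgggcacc
Ccl22 (chr8:94745434-94745683, plus strand): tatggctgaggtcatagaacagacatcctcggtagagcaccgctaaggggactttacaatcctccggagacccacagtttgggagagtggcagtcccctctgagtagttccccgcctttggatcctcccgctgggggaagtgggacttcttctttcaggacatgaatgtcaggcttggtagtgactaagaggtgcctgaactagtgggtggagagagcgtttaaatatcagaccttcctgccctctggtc
Ccl8 (chr11:82114935-82115184, plus strand): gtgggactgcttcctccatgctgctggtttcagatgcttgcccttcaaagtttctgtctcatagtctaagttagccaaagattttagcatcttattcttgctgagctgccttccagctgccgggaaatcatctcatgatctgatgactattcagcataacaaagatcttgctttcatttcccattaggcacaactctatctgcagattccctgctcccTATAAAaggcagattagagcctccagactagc
Ccl9 (chr11:83578637-83578886, minus strand): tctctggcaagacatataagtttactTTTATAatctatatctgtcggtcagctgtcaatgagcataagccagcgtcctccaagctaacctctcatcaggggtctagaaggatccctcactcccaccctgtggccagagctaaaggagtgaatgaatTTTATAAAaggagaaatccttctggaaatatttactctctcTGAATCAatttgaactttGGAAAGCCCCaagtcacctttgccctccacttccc
Ccl20 (chr1:83116516-83116765, plus strand): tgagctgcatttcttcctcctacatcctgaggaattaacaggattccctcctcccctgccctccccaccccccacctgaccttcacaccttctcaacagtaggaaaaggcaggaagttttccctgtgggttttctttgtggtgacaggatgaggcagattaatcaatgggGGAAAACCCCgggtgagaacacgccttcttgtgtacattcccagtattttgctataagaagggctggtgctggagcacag
The Ccl17 window held 1 match to TTCNNNNGAA and 1 to TTCNNNGAA, which began 154 and 99 bases before the start. The window of Ccl22, the gene of the other CCR4 ligand, held no match to any of the 5 motifs. Ccl20 held 1 NF-kB match, 80 bases before the start. Ccl9 held an NF-kB match at 35 bases, TGANTCA at 53 bases and 3 matches to TATAAA, of which 2 overlap at 94 and 92 bases on opposite strands. Ccl8 held TATAAA at 32 bases. A match is a run of letters and not a measured binding site.

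Ccl24 (eotaxin-2) and Ccl11 (eotaxin-1) encode CCR3 ligands, the main attractants of eosinophils. For Ccl24, the log2 signals were 7.79 and 7.84 for NT mice, 14.58 and 14.75 for Ctrl-F, 14.50 and 14.25 for Cap-F, and 14.74 and 14.48 for ODNcap-F. The lowest OVA-challenged mouse lay 6.42 above the higher NT mouse, against a range of 0.49 over the 6 OVA-challenged mice. Ccl24 rose 115-fold in Ctrl-F (log2 fold change 6.85, SE 0.13, limma adjusted p = 4.85e-06), 94.5-fold in Cap-F and 111-fold in ODNcap-F.

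For Ccl11, the log2 signals were 6.31 and 6.34 for NT, 12.32 and 12.67 for Ctrl-F, 12.77 and 12.64 for Cap-F, and 12.40 and 12.81 for ODNcap-F. The OVA-challenged groups overlapped one another and stood 5.98 or more above NT. Ccl11 rose 72.0-fold in Ctrl-F (log2 fold change 6.17, SE 0.17, limma adjusted p = 7.11e-06), 83.3-fold in Cap-F and 77.8-fold in ODNcap-F.

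Ccl2 (MCP-1) and Ccl7 (MCP-3) encode CCR2 ligands that attract monocytes, and CCL7 also binds CCR3. Ccl2 gave log2 signals of 7.91 and 8.11 for NT, 11.37 and 11.34 for Ctrl-F, 11.43 and 11.45 for Cap-F, and 11.57 and 11.97 for ODNcap-F. Its 3 OVA-challenged groups did not overlap, with Ctrl-F lowest and ODNcap-F highest. Of all genes tested, 51.7% did not overlap in Cap-F against Ctrl-F, 35.6% in ODNcap-F against Ctrl-F and 45.7% in ODNcap-F against Cap-F. Ccl2 rose 10.1-fold in Ctrl-F (log2 fold change 3.34, SE 0.14, limma adjusted p = 2.6e-05), 10.8-fold in Cap-F and 13.5-fold in ODNcap-F.

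Ccl7 gave log2 signals of 6.05 and 6.0 for NT, 10.22 and 10.39 for Ctrl-F, 10.25 and 10.09 for Cap-F, and 10.25 and 11.06 for ODNcap-F. Mouse 2 of ODNcap-F stood apart from the other 5 OVA-challenged mice, and its distance from mouse 1, 0.81, was the largest between the 2 mice of a group for any of the 10 genes. The same mouse had the highest Ccl2 signal. Ccl7 rose 19.4-fold in Ctrl-F (log2 fold change 4.28, SE 0.25, limma adjusted p = 7.16e-05), 17.6-fold in Cap-F and 24.8-fold in ODNcap-F.

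Mouse Ccl8 (MCP-2) encodes an agonist of CCR8, a receptor of type 2 helper T cells. Its log2 signals were 8.24 and 7.95 for NT, 16.06 and 16.57 for Ctrl-F, 16.28 and 16.34 for Cap-F, and 16.29 and 16.34 for ODNcap-F. The group means of the OVA-challenged mice differed by 0.01, less than the 0.50 between the 2 Ctrl-F mice. Ccl8 rose 298-fold in Ctrl-F (log2 fold change 8.22, SE 0.18, limma adjusted p = 4.92e-06), 297-fold in Cap-F and 299-fold in ODNcap-F, the increases of rank 20, 13 and 23 among the 28992 genes and transcripts tested.

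Ccl17 (TARC) and Ccl22 (MDC) encode the ligands of CCR4 and lie near each other on chromosome 8. Ccl17 gave log2 signals of 8.87 and 9.27 for NT, 12.07 and 11.53 for Ctrl-F, 11.82 and 11.72 for Cap-F, and 12.05 and 11.74 for ODNcap-F. The 2 Ctrl-F mice were the highest and the lowest of the 6 OVA-challenged mice. Ccl17 rose 6.64-fold in Ctrl-F (log2 fold change 2.73, SE 0.22, limma adjusted p = 0.000209), 6.51-fold in Cap-F and 7.11-fold in ODNcap-F.

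Ccl22 was the only one of the 10 genes that was not well above background in NT. Its log2 signals were 1.83 and 1.84 for NT, then 4.83 and 4.31 for Ctrl-F, 4.77 and 5.11 for Cap-F, and 4.79 and 4.47 for ODNcap-F, well above background on each of these arrays. Against the lowest signal well above background on the NT arrays, Ccl22 was at least 1.92-fold higher in Ctrl-F, 2.49-fold in Cap-F and 2.01-fold in ODNcap-F (limma adjusted p = 0.000169, 0.000132 and 0.00018 on the measured differences of 2.73, 3.11 and 2.80). The Ctrl-F bound lies under the 2-fold threshold, so the call there rests on the measured NT signal. With normexp background correction, which adds an offset to every signal, the Ccl22 differences were 0.47, 0.57 and 0.44, and 8 of the 10 genes were called in each comparison.

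Ccl20 (MIP-3α) encodes the ligand of CCR6 and is made by airway epithelium. It gave log2 signals of 6.43 and 6.11 for NT, 10.20 and 10.11 for Ctrl-F, 10.31 and 9.73 for Cap-F, and 9.76 and 9.61 for ODNcap-F. The ODNcap-F mice lay below both Ctrl-F mice and overlapped the Cap-F mice. Ccl20 rose 14.8-fold in Ctrl-F (log2 fold change 3.88, SE 0.21, limma adjusted p = 5.17e-05), 13.4-fold in Cap-F and 10.6-fold in ODNcap-F.

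Ccl9 (MIP-1γ) encodes a rodent chemokine that binds CCR1. Its log2 signals were 9.78 and 9.65 for NT, 14.65 and 14.79 for Ctrl-F, 14.50 and 14.38 for Cap-F, and 14.51 and 14.39 for ODNcap-F. The 2 mice of a group differed by at most 0.15, and both Ctrl-F mice lay above the other 4 OVA-challenged mice. Ccl9 rose 32.0-fold in Ctrl-F (log2 fold change 5.0, SE 0.10, limma adjusted p = 4.85e-06), 26.4-fold in Cap-F and 26.6-fold in ODNcap-F.

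Ccl5 (RANTES), whose product binds CCR1 and CCR3 and is abundant in cytotoxic lymphocytes, was the exception. Its log2 signals were 13.54 and 13.38 for NT, 12.93 and 12.81 for Ctrl-F, 13.17 and 13.00 for Cap-F, and 13.15 and 12.74 for ODNcap-F. All 6 OVA-challenged mice lay below both NT mice, with a gap of 0.21. The log2 fold changes were -0.59, -0.38 and -0.52 for Ctrl-F, Cap-F and ODNcap-F (limma adjusted p = 0.017, 0.0825 and 0.0289), and none reached 2-fold. The median change over all kept probes, -0.10 to -0.11 on the same scale, lay in the same direction. The 2 named genes whose signals ran closest to Ccl5 over the 8 arrays were Dcp1b and the perforin gene Prf1 (r = 0.983 for each). Of 7 T cell markers, 6, 7 and 7 had positive log2 fold changes for Ctrl-F, Cap-F and ODNcap-F, and 1, 2 and 1 were called higher. Among them, Cd8a was not called, with log2 fold changes of -0.29, 0.18 and 0.01 in the same order. The part of any cell type in the Ccl5 difference was not tested.

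**Figure D2:**
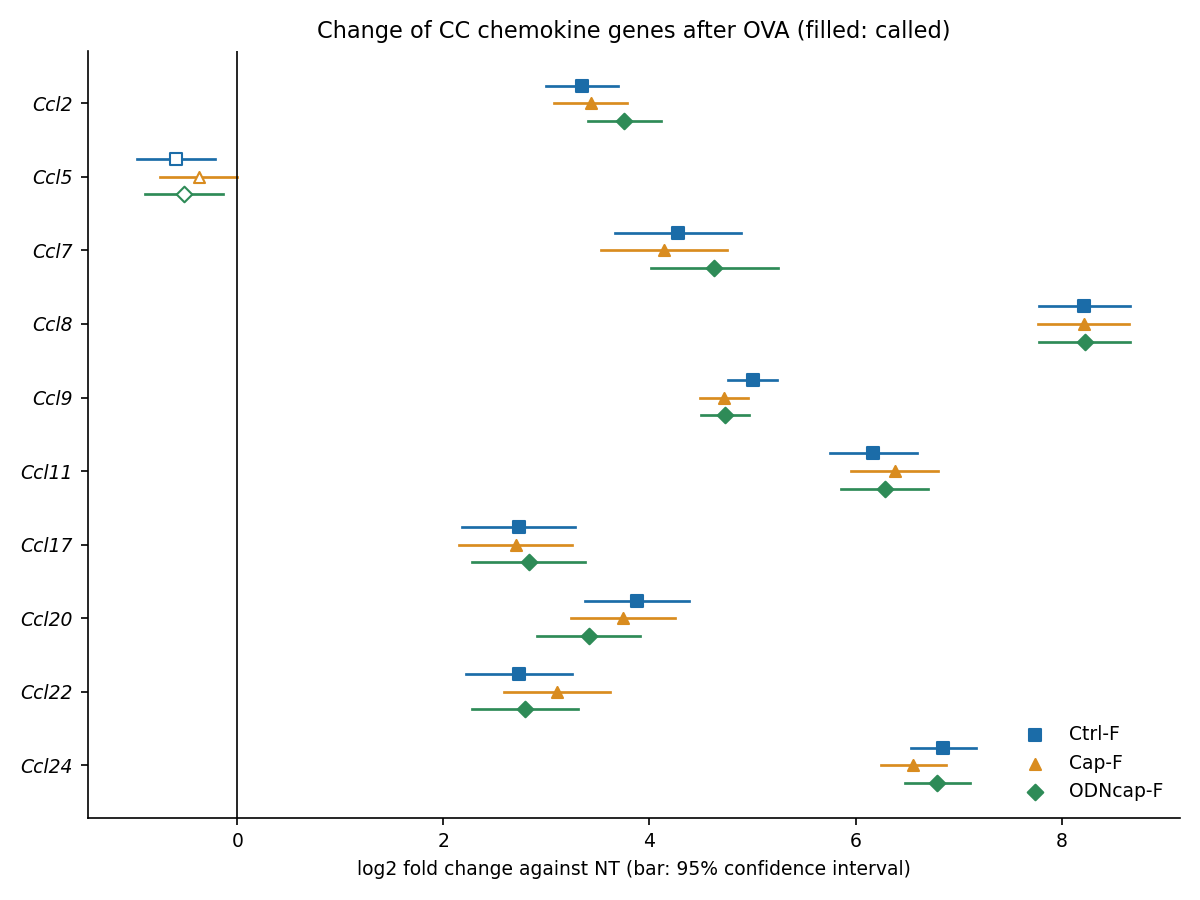
Log2 fold change against NT (horizontal axis) of the 10 genes for Ctrl-F, Cap-F and ODNcap-F, with 95% confidence intervals from the limma fit (bars); filled points were called. Within a gene the 3 intervals overlap, and Ccl5 alone lies below 0; the values of Ccl22 are measured differences against an NT signal not well above background.

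The question of the feeding experiment for these genes is whether either particle feed changed their transcripts in OVA-challenged lungs. No member was called in Cap-F against Ctrl-F, ODNcap-F against Ctrl-F or ODNcap-F against Cap-F by limma, with smallest adjusted p of 0.253, 0.74 and 0.403, nor by the local-pooled-error test of the methods. At an unadjusted p under 0.05 and no fold threshold, the counts were 1 (Ccl9), 2 (Ccl2 and Ccl9) and 0 of 10. The share of all genes and transcripts at that unadjusted limit was not counted, here or beside the unadjusted counts of the lists below. By the adjusted rule with its 2-fold threshold, 0.00345%, 0% and 0.00345% of all genes and transcripts were called in the 3 comparisons. Of the 30 confidence intervals of the 10 genes, 29 lay within a 2-fold change either way and 3 excluded 0, and the exception, Ccl7 in ODNcap-F against Cap-F, reached 1.10 on the log2 scale.

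In Cap-F against Ctrl-F, the largest differences were those of Ccl22, 0.37 (95% interval -0.14 to 0.89), and Ccl24, -0.29 (-0.61 to 0.03). Leaving out 1 mouse at a time gave 0.11 (without mouse 2 of Ctrl-F) to 0.63 (without mouse 1 of Ctrl-F) for Ccl22 and -0.17 (without mouse 2 of Cap-F) to -0.41 (without mouse 1 of Cap-F) for Ccl24. The Cap-F and Ctrl-F mice did not overlap for 4 of the 10 genes, with Ccl2 and Ccl5 higher and Ccl9 and Ccl24 lower in Cap-F, while 51.7% of all genes tested did not overlap. In ODNcap-F against Ctrl-F, the largest differences were those of Ccl20, -0.47 (-0.98 to 0.03), and Ccl2, 0.41 (0.06 to 0.76), which was 0.21 without mouse 2 of ODNcap-F and 0.61 without mouse 1. There, 3 of 10 did not overlap, with Ccl2 higher and Ccl9 and Ccl20 lower in ODNcap-F, against 35.6% of all genes. These 2 comparisons share the Ctrl-F mice.

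ODNcap-F against Cap-F compares feeds that both held the particles and differed in the oligonucleotide, and both groups shared row 2. The largest differences were those of Ccl7, 0.49 (-0.12 to 1.10), and Ccl20, -0.34 (-0.84 to 0.17). Without mouse 2 of ODNcap-F the Ccl7 difference was 0.09, and without mouse 1 of Cap-F the Ccl20 difference was -0.05, so that the size of each rests on 1 mouse. Only Ccl2 and Ccl7, both higher in ODNcap-F, did not overlap, 2 of 10 against 45.7% of all genes. For Ccl8 and Ccl9 the difference was 0.01 in each case, with intervals of -0.43 to 0.45 and -0.23 to 0.24.

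**Figure D3:**
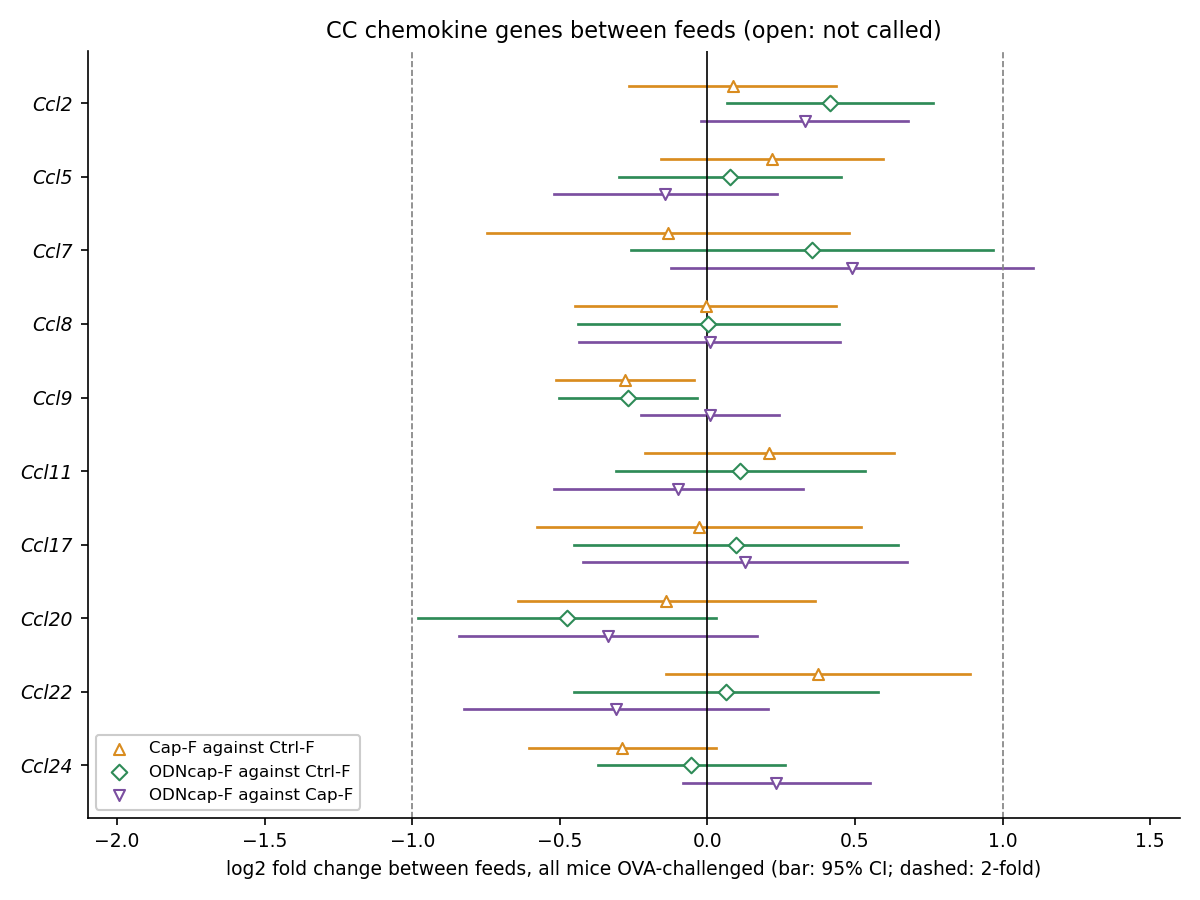
Log2 fold change between feeds (horizontal axis) for the 10 genes in the 3 comparisons of OVA-challenged groups, with 95% confidence intervals from the limma fit (bars) and dashed lines at 2-fold. All points are open because none was called, and the interval of Ccl7 in ODNcap-F against Cap-F is the only one that passes a dashed line.

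No mouse was high or low for most of the genes. Among the 6 OVA-challenged mice, mouse 2 of Ctrl-F was highest for 3 genes (Ccl8, Ccl9 and Ccl24) and lowest for 3 (Ccl2, Ccl17 and Ccl22), and mouse 2 of ODNcap-F was highest for 3 (Ccl2, Ccl7 and Ccl11) and lowest for 2 (Ccl5 and Ccl20). The range over these 6 mice lay between 0.41 for Ccl9 and 0.97 for Ccl7. The mean log2 signal of the 10 genes ranged over 0.11 across the 6 mice, from 11.87 to 11.98. Over the same mice the mean of 5 cardiac muscle markers ranged over 2.62 and that of 4 adipocyte markers over 2.97; in the mean of the 10 genes, deviations of single genes in opposite directions cancel in part. Against NT, 4, 0 and 0 of the 5 cardiac muscle markers and 3, 1 and 0 of the 4 adipocyte markers were called lower for Ctrl-F, Cap-F and ODNcap-F, and none was called between feeds by limma, with 0, 4 and 0 of 5 and 0, 2 and 0 of 4 at an unadjusted p under 0.05 in Cap-F against Ctrl-F, ODNcap-F against Ctrl-F and ODNcap-F against Cap-F.

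Several members are neighbours. In the RefSeq table, Ccl2, Ccl7, Ccl11, Ccl12, Ccl8 and Ccl1 follow one another on chromosome 11, and Ccl5, Ccl9, Ccl6, Ccl3 and Ccl4 form another run on the same chromosome. All 6 genes of the former run were called higher in the 3 OVA-challenged groups. Their log2 fold changes in Ctrl-F went from 3.34 for Ccl2 to 8.22 for Ccl8. In the latter run Ccl9, Ccl6, Ccl3 and Ccl4 rose while Ccl5, next to Ccl9, was not called. Ccl6 rose 3.61-fold in Ctrl-F, beside 32.0-fold for its neighbour Ccl9.

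**Figure D4:**
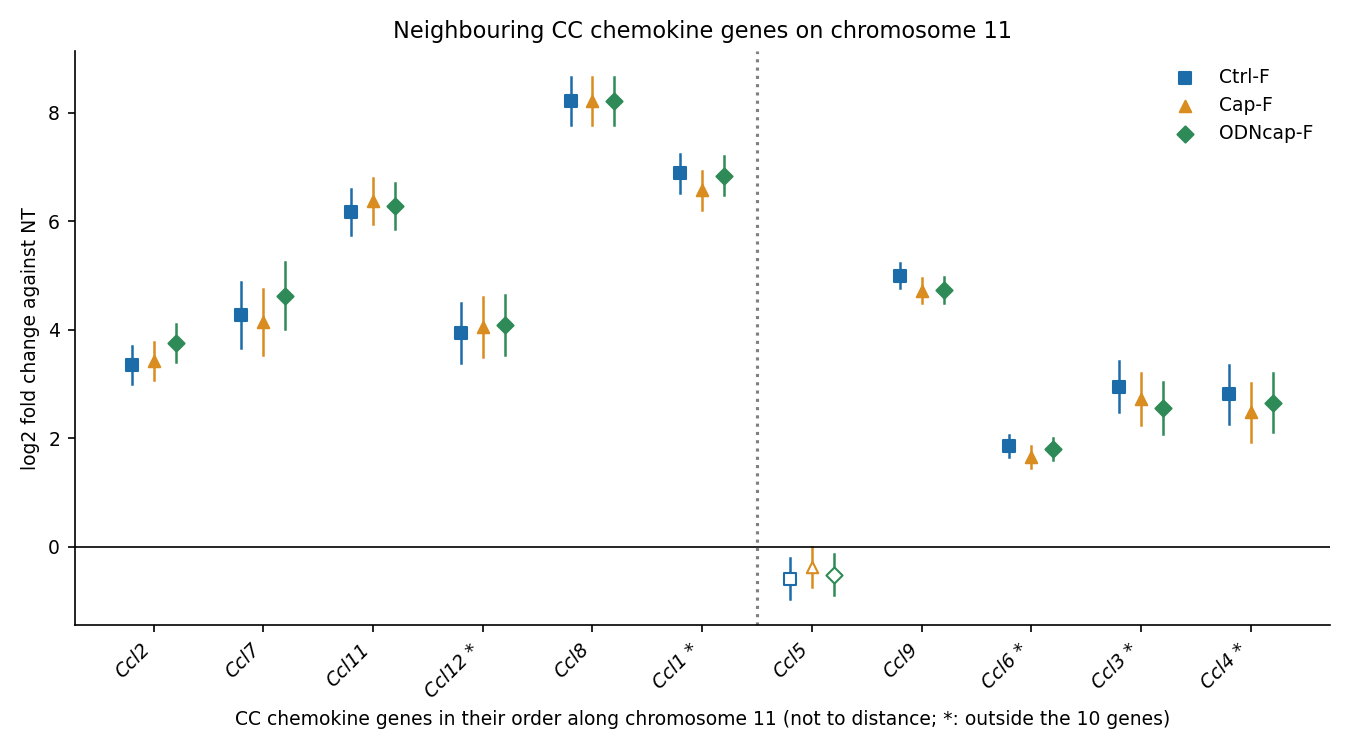
Log2 fold change against NT (vertical axis) with 95% confidence intervals (bars) of the CC chemokine genes of chromosome 11, placed in gene order and not by distance, in the 3 OVA-challenged groups; asterisks mark genes outside the 10, filled points were called and the dotted line parts the 2 runs. Ccl5 is the only gene of the 11 with open points, and Ccl1 is plotted as the measured difference against an NT signal not well above background.

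The other CC chemokines in the family list were tested for 10 of 11 genes, and 6 were called higher in each OVA-challenged group, with 2, 2 and 1 called lower for Ctrl-F, Cap-F and ODNcap-F. The median log2 change was 1.44, 1.58 and 1.49, beside -0.12, -0.11 and -0.12 over all genes. Ccl1, another ligand of CCR8 and among the 6, was not well above background in NT and was kept only through the OVA-challenged groups. It was at least 31.3-fold higher in Ctrl-F, 25.0-fold in Cap-F and 30.2-fold in ODNcap-F. Ccl12 (MCP-5), a mouse ligand of CCR2, rose 15.3-fold, 16.6-fold and 17.0-fold. Ccl3 and Ccl4 (MIP-1α and MIP-1β), attractants of macrophages and lymphocytes, rose 7.72-fold and 7.01-fold in Ctrl-F. Ccl27a, an epithelial ligand of CCR10, fell by 1.62, 1.32 and 1.90 on the log2 scale at its brightest probe. Another probe of Ccl27a was also called lower, the dimmest was not, and near-identical copies of this gene may share its probes.

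Receptors of these chemokines were measured in the same lungs. Of 13 receptor genes, 12 were tested, with 8, 7 and 7 called higher and 3 called lower in each of Ctrl-F, Cap-F and ODNcap-F. The shares over all genes and transcripts were 10.5%, 9.74% and 9.86% higher and 12.2%, 9.87% and 10.8% lower. Ccr3, the eosinophil receptor for CCL11 and CCL24, gave log2 signals of 6.30 and 6.63 for NT, 9.36 and 9.32 for Ctrl-F, 9.91 and 9.77 for Cap-F, and 9.64 and 9.32 for ODNcap-F. The OVA-challenged mice all lay above NT, and Ccr3 rose 7.34-fold, 10.4-fold and 8.07-fold. Ccr6, the receptor for CCL20 that B cells also carry, rose 6.11-fold, 8.60-fold and 6.19-fold.

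Ccr8, the receptor for CCL8 and CCL1, rose 4.26-fold, 3.83-fold and 3.78-fold for Ctrl-F, Cap-F and ODNcap-F. Ccr4, the receptor for CCL17 and CCL22, rose 2.59-fold, 2.48-fold and 2.42-fold, and a second, dimmer probe of it was not well above background on both arrays of any group. Ccr2, the receptor for CCL2 and CCL7, rose 2.38-fold, 2.52-fold and 2.21-fold. Ccr1, the receptor for CCL9, was not well above background on any array and was not tested.

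Among receptors with other ligands or a scavenging role, Ccr10, the receptor for CCL27 and CCL28, rose 18.4-fold, 19.5-fold and 18-fold. Ackr1, an atypical receptor that binds many inflammatory chemokines on venules and red cells, rose 7.33-fold, 6.77-fold and 5.98-fold. Ackr2, which takes up and degrades CC chemokines such as CCL2 and CCL11, fell by 1.2, 1.13 and 1.10 on the log2 scale at its brighter probe, and at its dimmer probe the differences were -0.96, -1.07 and -0.91, called only in Cap-F. None of the 12 receptors was called between feeds by limma, with smallest adjusted p of 0.222, 0.769 and 0.383. At an unadjusted p under 0.05, 2, 0 and 1 passed in Cap-F against Ctrl-F, ODNcap-F against Ctrl-F and ODNcap-F against Cap-F.

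**Figure D5:**
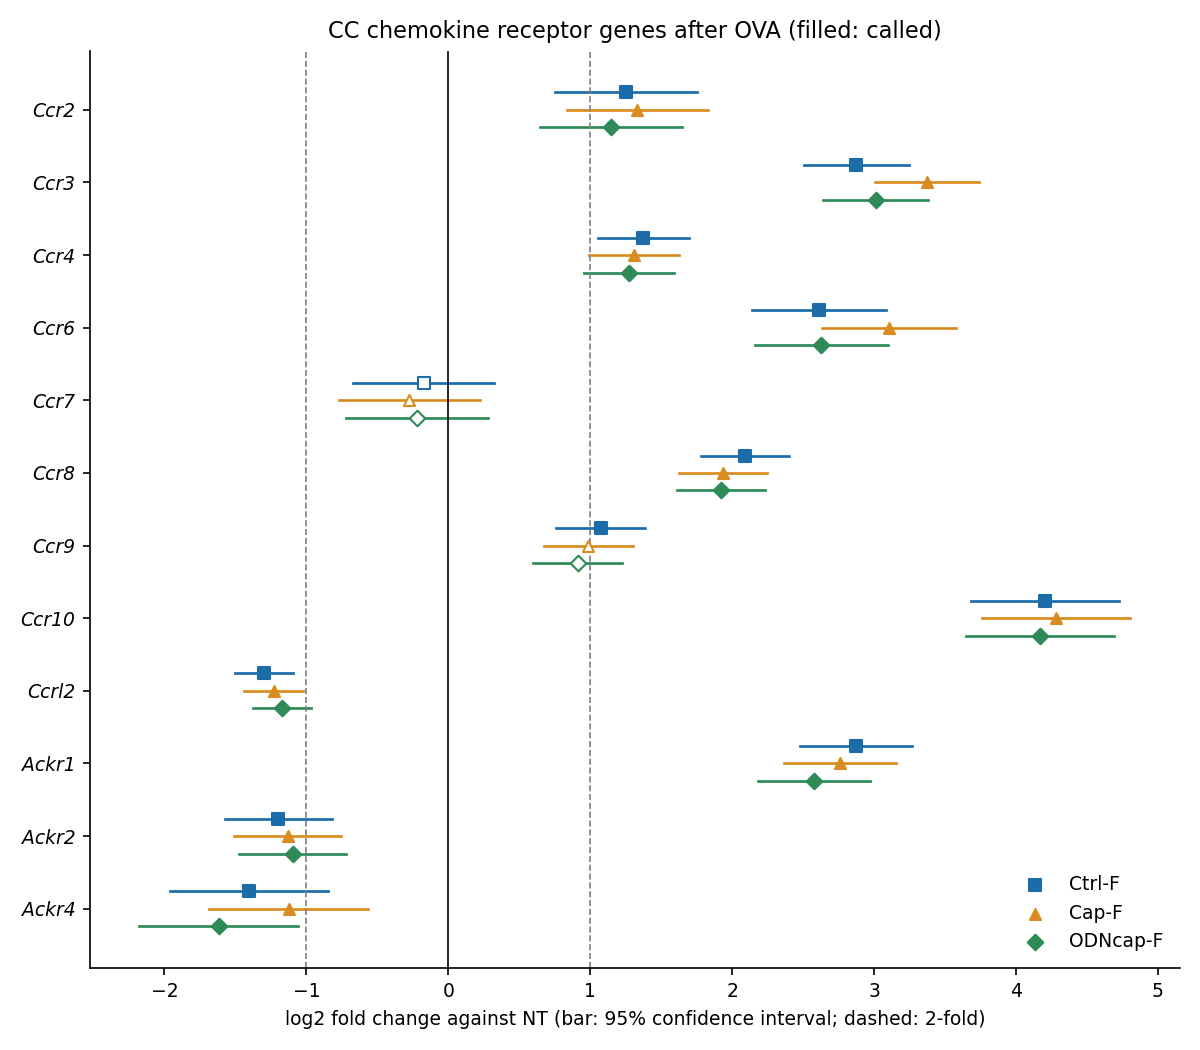
Log2 fold change against NT (horizontal axis) of 12 CC chemokine receptor genes in the 3 OVA-challenged groups, with 95% confidence intervals from the limma fit (bars), dashed lines at 2-fold and filled points for called genes. Ccr10 and Ccr3 lie farthest to the right, Ccr7 spans 0, and Ccrl2, Ackr2 and Ackr4 lie to the left.

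Of 12 genes of the IL-4 and IL-13 pathway, which drives Ccl11, Ccl17, Ccl22 and Ccl24 in many cells, 6, 7 and 5 were called higher for Ctrl-F, Cap-F and ODNcap-F, and none lower. The share of all genes and transcripts called higher was 10.5%, 9.74% and 9.86%. Il4 rose 15.0-fold, 13.7-fold and 14.5-fold. Il13, counted among the genes called higher, was not well above background in NT and was kept only through the OVA-challenged groups. It was at least 2.93-fold, 2.39-fold and 2.08-fold higher. Il13ra2, a decoy receptor for IL-13, rose 30.7-fold, 16.7-fold and 26.5-fold against NT signals of which 1 of 2 was well above background. Socs1, a feedback inhibitor of cytokine signaling, rose 5.88-fold, 5.84-fold and 5.56-fold. The log2 fold changes of Stat6, the transcription factor of the pathway, were -0.39, -0.23 and -0.38, under 2-fold.

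Of 15 genes of the TNF, IL-1 and NF-kB pathway, which acts on Ccl2 and Ccl20 among others, 6, 8 and 6 were called higher and none lower. The share of all genes and transcripts called higher was 10.5%, 9.74% and 9.86%. Il17a of this list was not well above background in NT or Ctrl-F and was kept only through Cap-F. Il1rn, the IL-1 receptor antagonist, rose 13.0-fold, 14.2-fold and 11.2-fold, and the alarmin Il33 rose 4.61-fold, 3.85-fold and 4.38-fold. Tnf rose 2.48-fold, 2.79-fold and 2.24-fold at its brighter probe, at which the 2 NT mice read 5.28 and 6.62. The log2 fold changes of Il1b were 0.47, 0.66 and 0.20, under 2-fold. Neither pathway list held a gene called between feeds by limma; at an unadjusted p under 0.05, 1, 1 and 0 of 12 and 3, 1 and 3 of 15 passed.

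Markers of cells that make or follow these chemokines were counted in the same comparisons. Of 8 eosinophil markers 7 were called higher in each OVA-challenged group, and their mean log2 signal went from 7.89 to 8.23 in NT to 10.75 to 11.11 over the OVA-challenged mice. Among the 7, Epx was not well above background in NT and was kept only through the OVA-challenged groups. Its NT signals of 3.46 and 1.77 enter the NT means. Of 5 markers of alternatively activated macrophages 4 were called higher, with mean signals of 10.14 to 10.41 in NT and 13.97 to 14.44 after OVA. B cell markers were called higher for 5, 6 and 5 of 7 genes, and T cell markers for 1, 2 and 1 of 7. Over all genes and transcripts tested, 10.5%, 9.74% and 9.86% were called higher and 12.2%, 9.87% and 10.8% lower. The T cell counts of Ctrl-F and ODNcap-F lie near that share. Of 5 endothelial markers 4 were called lower, with means of 12.97 to 13.05 in NT and 11.54 to 11.79 after OVA, and the lung epithelial markers had means of 15.11 to 15.12 in NT and 14.69 to 14.91 after OVA. Their part in the chemokine changes was not tested.

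For each member, the 2 named genes outside the 10 whose log2 signals correlated best with it over the 8 arrays were taken from 16561 genes, as a description. They were Nrm and Fkbp2 for Ccl2, Nrm and Polq for Ccl7, Cebpe and C1qc for Ccl8, Gm15056 and Aurka for Ccl9, Adgre1 and Kbtbd12 for Ccl11, Gmnn and Cenpi for Ccl17, Runx3 and H60b for Ccl20, Irf5 and Unc93b1 for Ccl22, Gfi1 and Slc26a4 for Ccl24, and Dcp1b and Prf1 for Ccl5. Pearson's r lay between 0.996 and 0.9999 for the 9 genes that rose and was 0.983 for both partners of Ccl5. For the 9, the gap between the 2 NT mice and the 6 OVA-challenged mice sets most of each r.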

How the data were processed

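Total RNA from the lung of each of 8 mice was labeled in 1 color and hybridized to an Agilent SurePrint G3 mouse array, 1 array per mouse, all on 1 slide. The authors deposited, for each array, the linear spot intensity that Agilent Feature Extraction 11.0 gives, with background already subtracted, and a table of log2 values normalized over the arrays. The deposited log2 table served as an alternative.

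Here, log2 of the processed intensity was quantile normalized over the 8 arrays, control and flagged spots were left out, and spots of a probe were averaged. Of 56605 probes, 37116 were kept because some group had both of its arrays well above background. Each gene was read from its brightest kept probe. limma 3.58.1 in R 4.3.3 was fitted over the 4 groups with 4 residual degrees of freedom, and p-values were adjusted by the Benjamini-Hochberg method over all kept probes. A call took both a fold change over 2 and an adjusted p under 0.05. The authors' own test, local-pooled-error, was an alternative, as were other scalings, background corrections, filters and the omission of each mouse. Where a probe was not well above background in NT, the fold is a lower bound against the lowest signal well above background. A limma p-value sets a difference of group means against the spread between mice of a group, pooled over the 4 groups. That spread is moderated toward the one typical of all kept probes, with 1.96 prior degrees of freedom. Nothing in the sources used here says whether mice of a group shared a cage. The fits were tested on simulated data.

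The 10 genes and the lists of receptors, pathways and markers were chosen with earlier results of these data known. Every one of the 10 genes is named, and other genes come from those lists. A receptor of the list is not reported here. Markers of monocytes (2 of 5 called higher against NT in each group), dendritic cells (4 of 8), macrophages (3 of 8 higher and 1 lower), neutrophils (1 of 7 higher in each group, and S100a9 lower in ODNcap-F), mast cells and basophils (2, 1 and 2 of 6) and lymph node stroma and thymus (2 of 4) were also counted. The other 3 monocyte markers, Ly6c2, Cx3cr1 and Nr4a1, lay lower in each group and were not called. The same held for the dendritic cell markers Zbtb46 and Cd209a, the macrophage marker Mertk and the neutrophil markers S100a8 and Csf3r. S100a9 also lay lower in Ctrl-F and Cap-F without a call. Among the 4 dendritic cell markers called, Xcr1 was not well above background in NT. Of all genes and transcripts tested, 10.5%, 9.74% and 9.86% were called higher for Ctrl-F, Cap-F and ODNcap-F. Gene symbols, gene order and promoter windows are from RefSeq, GRCm38.p6; the array was designed on an older build, so its probe coordinates were not used.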

Additional observations from a re-analysis of the deposited data

How the results depend on the processing

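The number of genes called against NT, in either direction, was recomputed under 20 alternatives in each comparison and lay between 8 and 10, and no gene was called between feeds under any of them. It was 8 with normexp background correction, where Ccl22 lost its call at log2 fold changes of 0.47, 0.57 and 0.44 for Ctrl-F, Cap-F and ODNcap-F (adjusted p = 0.00066, 0.000239 and 0.000992), and where a filter on all 8 arrays or the deposited normalized table left Ccl22 out. The 10 arose only with the adjusted p alone, which gave 10, 9 and 10, since Ccl5 was then called lower in Ctrl-F and ODNcap-F. Leaving out 1 mouse at a time gave 9 called genes in every comparison against NT and 0 between feeds; the adjusted p of Ccl5 against NT then reached 0.0845, 0.276 and 0.128. The smallest adjusted p between feeds was 0.121, for Cap-F against Ctrl-F with normexp. Of 640 recomputed fold changes, 637 kept direction and call, 3 lost the call (Ccl22) and 0 reversed. Many alternatives alter only the test, the filter or mice outside the comparison, so the direction could not change under them. Those that could move a fold change were the other scaling, normexp, the deposited table and the omission of a mouse of a compared group. Mice with the same number did not deviate together (r of -0.01 to 0.16 between groups), and a fit with the replicate number as a block left the counts at 9 against NT and 0 between feeds. Signal over background limits Ccl22 in NT and Ccr1 on all arrays. With 2 mice in a group, the interval of Ccl7 between ODNcap-F and Cap-F takes in a change of 2-fold.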
